A study of Mus musculus with 6 samples.

Results

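Cytochrome P450 genes of families 1 to 4 were examined in primary mouse hepatocytes that had been transduced for 24 h with an adenovirus encoding the nuclear form of CREBH (Ad-nuclear CREBH) or green fluorescent protein (Ad-GFP). CREBH, the product of Creb3l3, is a transcription factor of the liver that is held in the endoplasmic reticulum membrane until it is cut, and its nuclear form is the freed N-terminal fragment. The genes were taken by name: every feature of the array annotated with exactly 1 symbol made of Cyp, a family number from 1 to 4, a subfamily letter and a gene number, with the feature of highest mean kept for each gene. This gave 65 of the 18820 genes measured, of which 3 were in family 1, 44 in family 2, 6 in family 3 and 12 in family 4.

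Hepatocytes came from male wildtype C57BL/6J mice aged 8 to 10 weeks, were freed from the liver by perfusion and digestion, and were plated in 60 mm dishes. Both groups received virus at a multiplicity of infection of 100 particles per cell, 3 dishes with Ad-GFP and 3 with Ad-nuclear CREBH, so that every dish carried an adenovirus and none was left without one. Each dish was read on its own Affymetrix Mouse Gene 1.1 ST array. The sample titles call the second virus Ad-CREBH3. No source used here says whether the 3 dishes of a group came from different animals, so that p-values measure only the spread between dishes. Values are log2 expression as the authors deposited them after RMA, which removes background, puts the arrays on a common distribution and joins the probes of a feature into 1 value. A difference of 1 on that scale is a 2-fold difference. Unless another setting is named, a gene is said to have risen or fallen where the Benjamini-Hochberg adjusted p over all 18820 genes was under 0.05 in limma, and errors of fold changes are standard errors (SE). With 3 dishes per group, the smallest p that exact permutation allows is 0.1, and no such test was used.

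P450 enzymes are heme proteins of the endoplasmic reticulum that insert 1 oxygen atom into their substrate with electrons passed on from NADPH. In the liver, enzymes of families 1, 2 and 3 oxidize drugs, pollutants and steroids, several enzymes of family 2 also act on arachidonic acid or bile acids, and those of family 4 hydroxylate fatty acids and eicosanoids at the end of the chain. Their genes are controlled by receptors that sense the substrates, among them the aryl hydrocarbon receptor for family 1, CAR for Cyp2b genes, PXR for Cyp3a genes and PPARα for Cyp4a genes. Hepatocytes lose much of their P450 mRNA in culture, and the levels described here are those of cultured cells.

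Alb, the gene of albumin, was at 13.23 to 13.33 in all 6 dishes, and the 10 hepatocyte markers had a summed level of 15.39 to 15.55 with Ad-GFP and 15.35 to 15.40 with Ad-nuclear CREBH, with 4 that fell and 1 that rose. Fgb fell by 2.29 on the log2 scale, Tat by 2.17, Cps1 by 1.21 and Hpx by 0.32, and Apoa1 rose by 0.74. The sum is carried by the brightest genes, such as Alb, and says little about the dimmer ones. All 10 had a mean above the median of all genes, and of all genes above that median 29.2% fell and 29.3% rose. Creb3l3 itself was at 8.49, 8.02 and 8.21 with Ad-GFP and at 9.97, 10.46 and 10.59 with Ad-nuclear CREBH, in which virus and mouse transcripts cannot be told apart. Among markers of other liver cells, 3 of 9 Kupffer cell genes fell, 1 rose and 5 did not pass. Their summed level was 11.38 to 11.82 with Ad-GFP and 10.21 to 11.32 with Ad-nuclear CREBH. Most of that sum was Cd68, at 11.70, 11.52 and 11.24 with Ad-GFP and at 11.165, 9.99 and 9.90 with Ad-nuclear CREBH. The means of 6 of the 9 were at or below the median of all genes. The 5 leukocyte markers were all below the median of all genes and none passed the test. For endothelial markers 1 of 8 rose, for stellate cell markers 1 of 9 fell, and of 5 cholangiocyte markers 2 fell and 1 rose. The part of these cells in the results below was not tested. In a whole dish, fewer cells of a type and less mRNA per cell cannot be told apart.

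P450 genes fell more often than they rose with Ad-nuclear CREBH. Of the 65 genes, 36 passed the test and 29 did not, and 37.4% of all genes passed. Among those that passed, 25 fell (38.5% of the 65) and 11 rose (16.9%), whereas over all genes measured 18.2% fell and 19.2% rose. The median log2 fold change of the P450 genes was -0.37, beside 0.04 for all genes. A fall of at least 2-fold was found for 16 of them (8.96% of all genes) and a rise of that size for 5 (9.43% of all genes). All 3 Ad-nuclear CREBH dishes lay below all 3 Ad-GFP dishes for 24 P450 genes (23.1% of all genes) and above them for 13 (26.2% of all genes). The criteria of the study asked for an unadjusted p under 0.001, a fold change over 2 or under 0.5 and a linear expression value over 300. By these criteria, with the p of limma in place of the study's own test, 7 P450 genes were downregulated (3.1% of all genes) and 1 was upregulated (4.91% of all genes).

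**Figure D1:**
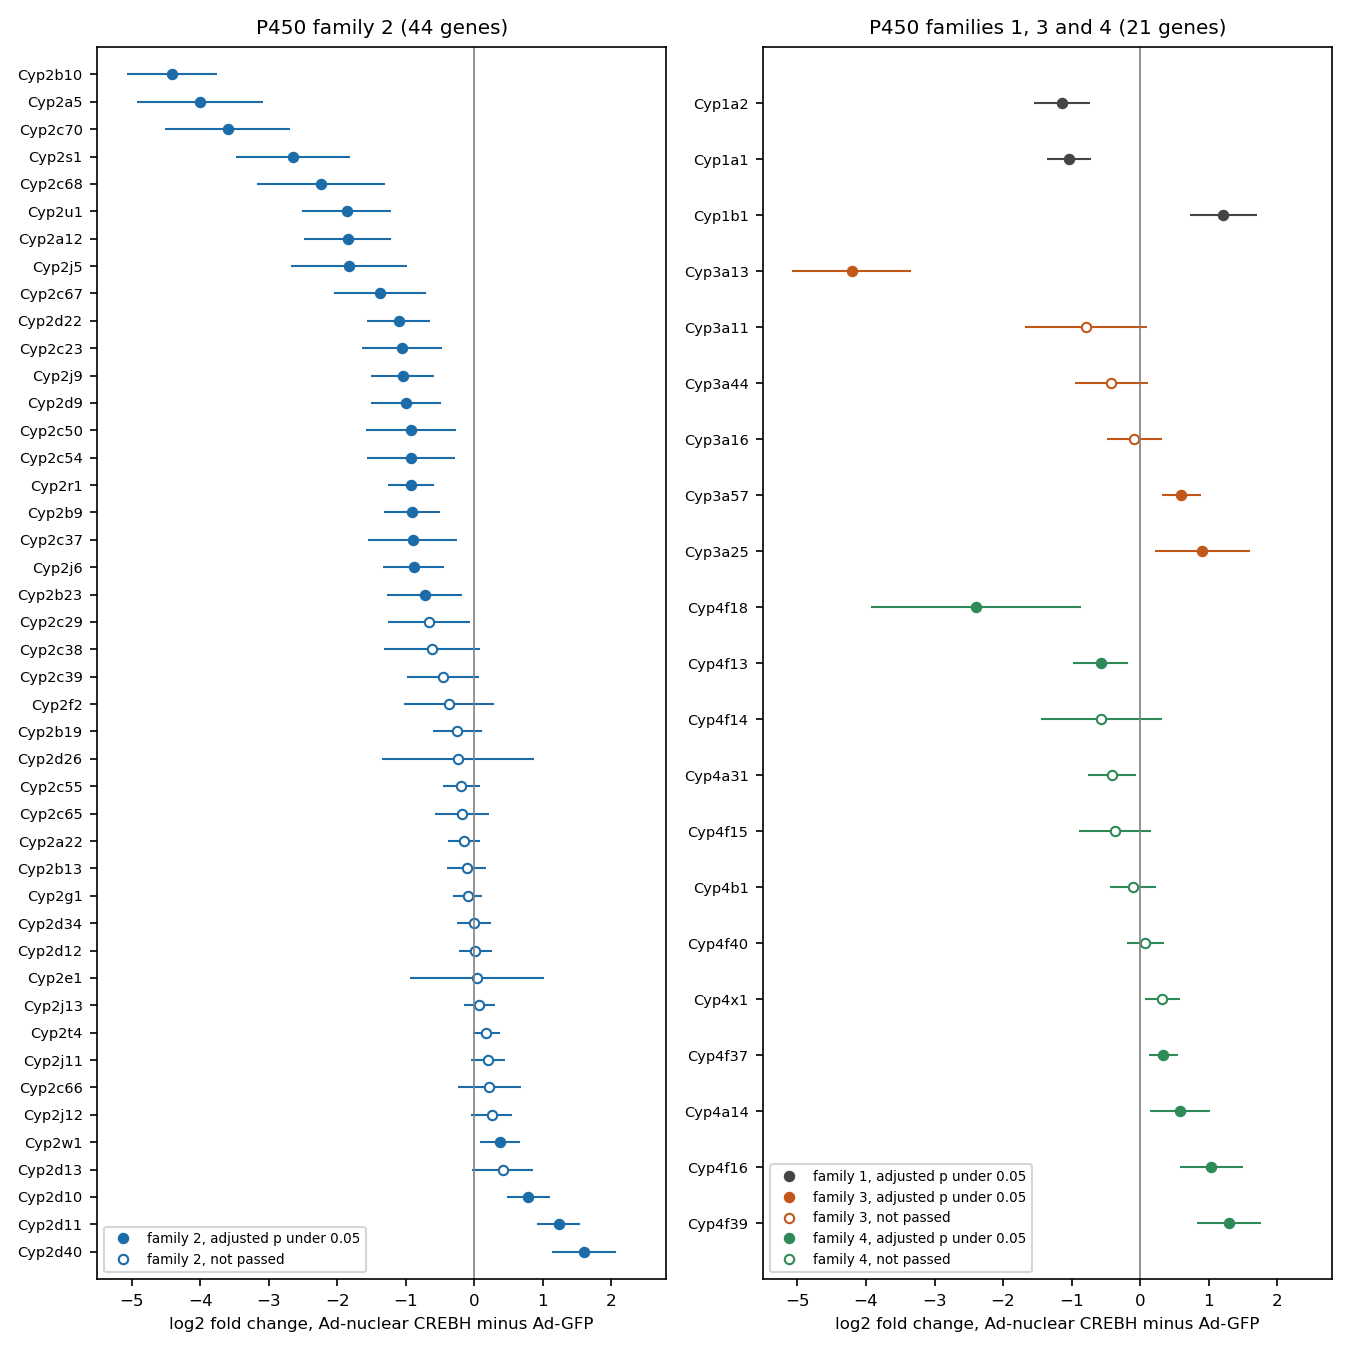
The log2 fold change of each of the 65 P450 genes (x axis, Ad-nuclear CREBH minus Ad-GFP, 3 dishes each) is plotted with its 95% confidence interval for family 2 (left) and for families 1, 3 and 4 (right). Filled points passed an adjusted p under 0.05 and open points did not; of the filled points 25 lie left of the line at 0 and 11 to its right.

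The falls lay mostly among genes with a value well above the bottom of the scale. A mean over the 6 dishes above 5.24, the median of all genes, was found for 30 of the P450 genes, and 20 of these fell (66.7%) and 4 rose, whereas of all genes above that median 29.2% fell and 29.3% rose. Of the 35 P450 genes at or below the median, 5 fell and 7 rose, where 7.23% of all such genes fell and 9.14% rose. Among the 65 genes, 7 fell at least 4-fold (2.44% of all genes) and none rose as far (2.93% of all genes). Cyp2b10, Cyp3a13, Cyp2a5 and Cyp2c70 each fell more than 8-fold.

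The sequence upstream of a transcript start is shown for these 4 genes and for the 2 with the largest rises, Cyp2d40 and Cyp4f39, because a bZIP factor such as CREBH binds DNA near the genes it acts on. Each line holds the 150 bases before the transcript start in RefSeq's promoter table (build GRCm38.p6), 5′ to 3′ on the strand of the gene, with matches to a TATA box (TATAAA, or TTTATA on the other strand) or to the core of the xenobiotic response element bound by the aryl hydrocarbon receptor (GCGTG, or CACGC on the other strand) in capitals.
Cyp2b10 (chr7:25897508-25897657, + strand): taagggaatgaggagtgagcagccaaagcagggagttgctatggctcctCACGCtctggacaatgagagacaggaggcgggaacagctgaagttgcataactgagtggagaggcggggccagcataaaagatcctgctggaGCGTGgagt
Cyp3a13 (chr5:137921620-137921769, - strand): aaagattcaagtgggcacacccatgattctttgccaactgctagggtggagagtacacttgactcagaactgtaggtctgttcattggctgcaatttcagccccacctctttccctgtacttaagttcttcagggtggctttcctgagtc
Cyp2a5 (chr7:26835189-26835338, + strand): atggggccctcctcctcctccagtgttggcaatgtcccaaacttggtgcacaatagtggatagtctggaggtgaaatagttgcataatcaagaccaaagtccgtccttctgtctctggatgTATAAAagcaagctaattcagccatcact
Cyp2c70 (chr19:40187287-40187436, - strand): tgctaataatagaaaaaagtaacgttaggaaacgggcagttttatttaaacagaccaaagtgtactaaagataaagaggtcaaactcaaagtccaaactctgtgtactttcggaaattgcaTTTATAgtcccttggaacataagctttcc
Cyp2d40 (chr15:82764123-82764272, - strand): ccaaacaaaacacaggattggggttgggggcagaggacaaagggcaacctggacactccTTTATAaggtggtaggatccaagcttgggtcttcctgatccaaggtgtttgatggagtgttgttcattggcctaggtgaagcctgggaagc
Cyp4f39 (chr17:32452573-32452722, + strand): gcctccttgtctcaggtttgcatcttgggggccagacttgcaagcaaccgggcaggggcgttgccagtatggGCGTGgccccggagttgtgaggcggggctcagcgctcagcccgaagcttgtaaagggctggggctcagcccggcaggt
The TATA box match began 29 bases before the start in both Cyp2a5 and Cyp2c70 and 91 bases before it in Cyp2d40. Cyp2b10 held a pair of GCGTG matches, 1 on each strand, Cyp4f39 held 1, and Cyp3a13 held no match to any motif searched. RefSeq also lists starts further upstream for Cyp3a13 and Cyp4f39, so the Cyp3a13 window lies within the annotated gene and the Cyp4f39 window reaches into it.

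RefSeq promoter windows, from 250 bases before to 50 bases after the start, were at hand for 54 of the 65 genes. TATAAA was found on either strand in 23 of these (42.6%), against 15.7% of 27025 genes with a window. The core of the cyclic AMP response element, TGACG or CGTCA on the other strand, was found in 2 (3.7%, against 23% of all genes), both of them Cyp2j genes that fell, Cyp2j5 and Cyp2j9. TGACGTCA, the longer site that contains this core and is its own reverse complement, was in none of the 54 windows and in 2.03% of all. A second longer form of the core, TGACGTG, searched on both strands, was also in none of the 54 and in 2.22% of all. GCGTG or CACGC was in 12 (22.2%, against 35.2%), among them Cyp1a1 and Cyp1b1, of which the first fell and the second rose. Such matches describe the letters of these windows only.

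Family 1 was read through 3 genes, and all 3 passed the test, in both directions. Cyp1a2, which oxidizes caffeine and aromatic amines and is made in the liver without an inducer, was at 8.49, 8.98 and 8.87 with Ad-GFP and at 7.90, 7.52 and 7.49 with Ad-nuclear CREBH. The groups did not overlap, and the log2 fold change was -1.14 (SE 0.18, adjusted p = 0.0014), a 2.21-fold fall. Cyp1a1, its neighbour on chromosome 9 and the classic gene induced through the aryl hydrocarbon receptor, was near the low end of the scale in both groups, at 4.52, 4.39 and 4.63 against 3.36, 3.65 and 3.42. Its dishes did not overlap either, and it fell by 1.04 on the log2 scale (SE 0.14, adjusted p = 0.000572).

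Cyp1b1, an enzyme of steroid and carcinogen oxidation made mostly outside hepatocytes, went the other way. It was at 2.88, 2.92 and 3.56 with Ad-GFP and at 4.48, 4.46 and 4.06 with Ad-nuclear CREBH, a rise of 1.22 on the log2 scale (SE 0.21, adjusted p = 0.00237) between groups that did not overlap. Cyp1b1 was the only P450 gene here with a second feature, and that feature gave a log2 fold change of 0.23 with an adjusted p of 0.408. The rise of Cyp1b1 therefore holds for 1 of its 2 features.

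In family 2, 20 of 44 genes fell, 4 rose and 20 did not pass, with a median log2 fold change of -0.54. Of the 23 genes of the family above the median of all genes, 17 fell and 2 rose.

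Cyp2b10, the gene by which CAR activity is usually read in mouse liver, had the largest fall of all 65 genes. Its values were 10.34, 10.08 and 9.85 with Ad-GFP and 6.33, 5.22 and 5.47 with Ad-nuclear CREBH. The lowest Ad-GFP dish stood more than 3 log2 units above the highest Ad-nuclear CREBH dish, and the fall was 21.2-fold (log2 fold change -4.41, SE 0.28, adjusted p = 2.42e-05). Cyp2b9 and Cyp2b13, which are female-biased in mouse liver, and Cyp2b19 and Cyp2b23 lie in the same stretch of chromosome 7 and were near the low end of the scale. Cyp2b9 fell by 0.91 (adjusted p = 0.00465) and Cyp2b23 by 0.72 (adjusted p = 0.0427), whereas Cyp2b13 was at -0.11 and Cyp2b19 at -0.24 with adjusted p of 0.535 and 0.263. The call of Cyp2b23 was lost when any 1 of 4 dishes was left out, Ad-GFP replicate 2 or 3 or Ad-nuclear CREBH replicate 2 or 3, with adjusted p of 0.117 to 0.141.

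Cyp2a5, which hydroxylates coumarin and is the mouse counterpart of the human nicotine-oxidizing enzyme, was at 10.24, 11.003 and 10.996 with Ad-GFP and at 7.71, 6.16 and 6.37 with Ad-nuclear CREBH. It fell 16.0-fold (log2 fold change -4.003, SE 0.40, adjusted p = 0.000143). Within the Ad-nuclear CREBH group, replicate 1 was more than 1 log2 unit above the other two and still below every Ad-GFP dish. Cyp2a12, which hydroxylates testosterone and bile acids at position 7, fell by 1.85 (SE 0.27, adjusted p = 0.00103), from 9.86, 10.37 and 10.37 to 8.98, 8.11 and 7.96. The third gene of the subfamily, Cyp2a22, was close to the bottom of the scale in all dishes and gave -0.15 (adjusted p = 0.3).

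The remaining family 2 genes of chromosome 7 differed widely. Cyp2s1, an enzyme found mainly in epithelia outside the liver, was at 5.71, 7.24 and 6.79 with Ad-GFP and at 3.79, 3.83 and 4.20 with Ad-nuclear CREBH, and fell by 2.64 (SE 0.36, adjusted p = 0.000663). Cyp2r1, the vitamin D 25-hydroxylase, was even within each group, at 7.59, 7.80 and 7.44 against 6.72, 6.62 and 6.74, and fell by 0.92 (SE 0.15, adjusted p = 0.00155). In both genes the groups were apart.

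Cyp2e1, the ethanol- and acetaminophen-oxidizing enzyme, did not pass. It was at 10.98, 10.07 and 9.83 with Ad-GFP and at 11.27, 9.98 and 9.75 with Ad-nuclear CREBH. Replicate 1 was the highest dish in both groups, the other 4 dishes lay close together, and the log2 fold change was 0.04 with a 95% interval from -0.94 to 1.02. Cyp2f2, which activates naphthalene and is made by periportal hepatocytes, was at 8.38, 8.27 and 8.20 against 8.65, 7.58 and 7.52 (log2 fold change -0.37, adjusted p = 0.364). Its groups overlapped through Ad-nuclear CREBH replicate 1 alone, and without that dish it fell by 0.74 (adjusted p = 0.00421). Cyp2g1 and Cyp2t4 were at the low end of the scale and gave -0.10 and 0.18 without passing. Over the 14 P450 genes of chromosome 7, 7 fell and none rose.

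Chromosome 19 holds the 13 Cyp2c genes measured, several of which encode epoxygenases of arachidonic and linoleic acid, and 7 of them fell and none rose. Cyp2c70, which makes muricholic acids from chenodeoxycholic acid and so gives mouse bile acids their character, was at 10.27, 10.91 and 10.89 with Ad-GFP and at 8.08, 6.63 and 6.57 with Ad-nuclear CREBH. The groups were more than 2 log2 units apart at their nearest dishes, and the fall was 12.1-fold (log2 fold change -3.60, SE 0.39, adjusted p = 0.000216). Cyp2c68 fell by 2.24 (SE 0.41, adjusted p = 0.00295), from 5.84, 6.93 and 6.90 to 5.11, 4.09 and 3.76. Its neighbour Cyp2c67 fell by 1.38 (SE 0.29, adjusted p = 0.00657), from 7.41, 8.35 and 8.20 to 7.05, 6.25 and 6.51. In both, Ad-GFP replicate 1 and Ad-nuclear CREBH replicate 1 were the dishes that came closest to each other.

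Cyp2c23, an arachidonic acid epoxygenase, fell by 1.05 (SE 0.25, adjusted p = 0.0114), from 8.95, 9.63 and 9.44 to 8.77, 8.18 and 7.92. Cyp2c37, Cyp2c50 and Cyp2c54 lie side by side and are alike in sequence, so that their probes may read more than 1 of them. Their log2 fold changes were -0.90, -0.92 and -0.92, with adjusted p of 0.0368, 0.034 and 0.0326. In each of these 3 genes the call was lost without Ad-GFP replicate 2 or 3 or without Ad-nuclear CREBH replicate 2 or 3 (adjusted p of 0.0909 to 0.131). Cyp2c29 was at 7.52, 7.69 and 7.58 against 7.58, 6.61 and 6.63. It did not pass with all dishes (log2 fold change -0.66, adjusted p = 0.0853), and without Ad-nuclear CREBH replicate 1, which was level with the Ad-GFP dishes, it fell by 0.98 (adjusted p = 0.00164). The 5 other Cyp2c genes, Cyp2c38, Cyp2c39, Cyp2c55, Cyp2c65 and Cyp2c66, were below the median of all genes and gave -0.62 to 0.22.

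The Cyp2d genes of chromosome 15 went both ways, with 3 of 9 that rose and 2 that fell. Cyp2d40 had the largest rise among the 65 genes. It was at 5.87, 5.64 and 5.33 with Ad-GFP and at 7.48, 6.94 and 7.23 with Ad-nuclear CREBH, a 3.04-fold rise (log2 fold change 1.60, SE 0.20, adjusted p = 0.000461) between groups that stood more than 1 log2 unit apart. Cyp2d11 rose by 1.23 (SE 0.14, adjusted p = 0.000235), from 3.95, 4.13 and 4.17 to 5.41, 5.29 and 5.26. Cyp2d10 rose by 0.79 (SE 0.14, adjusted p = 0.00243), from 8.12, 7.82 and 7.89 to 8.59, 8.76 and 8.85. All 3 rises separated the groups, and Cyp2d10 and Cyp2d11 lie next to each other.

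Directly beside them, Cyp2d9, the male-biased testosterone 16α-hydroxylase of mouse liver, fell. It was at 7.24, 7.41 and 7.34 with Ad-GFP and at 6.79, 5.92 and 6.28 with Ad-nuclear CREBH (log2 fold change -0.999, SE 0.22, adjusted p = 0.00826). Cyp2d22, the outermost of the cluster on one side, fell by 1.103 (SE 0.20, adjusted p = 0.00275), from 7.94, 8.58 and 8.44 to 7.44, 7.06 and 7.15. Cyp2d26 was at 9.70, 9.19 and 8.77 against 10.20, 8.44 and 8.31, and did not pass (log2 fold change -0.24, SE 0.48, adjusted p = 0.754). As in Cyp2e1, both arrays numbered 1 were the highest of their group. Without Ad-nuclear CREBH replicate 1 it fell by 0.84 (adjusted p = 0.0453). Cyp2d12, Cyp2d34 and Cyp2d13, the last a transcribed pseudogene in RefSeq, gave 0.02, -0.004 and 0.41 and did not pass. The Cyp2d genes are near-identical over long stretches, and how far their probes separate them was not tested.

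**Figure D2:**
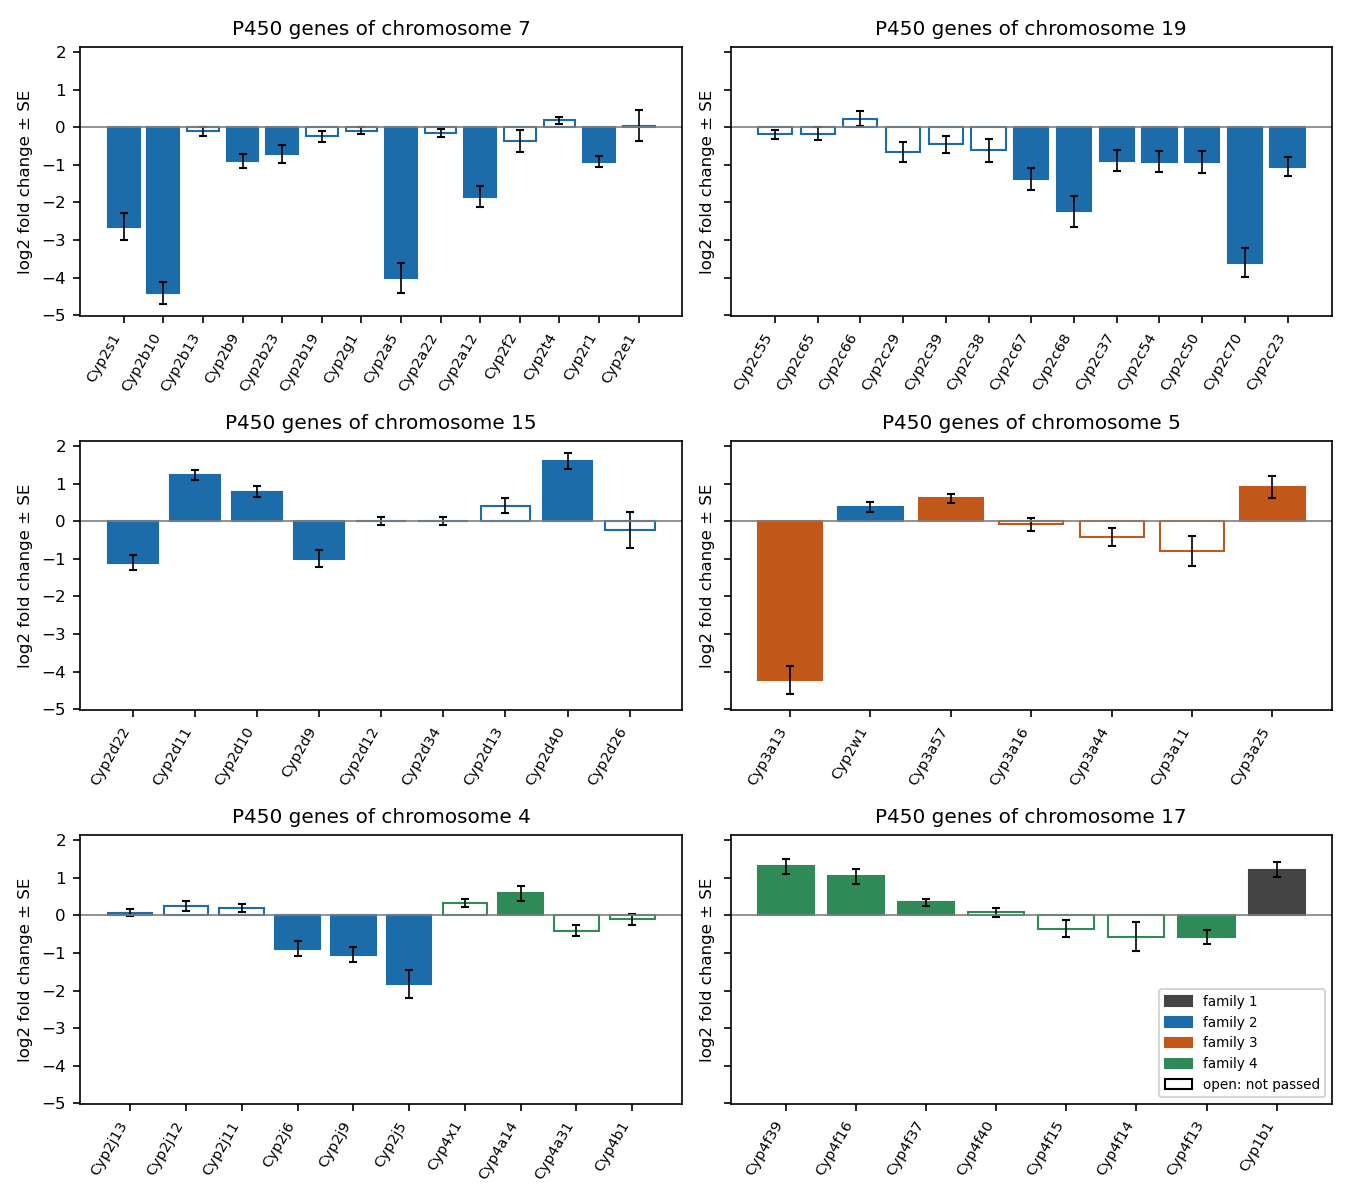
Bars give the log2 fold change (y axis, Ad-nuclear CREBH minus Ad-GFP, ± SE) of the P450 genes on the 6 chromosomes that hold at least 7 of them, in their order along each chromosome in GRCm38.p6, with spaces between genes not to scale. Filled bars passed the test and open bars did not: on chromosomes 7 and 19 all filled bars point down, and on chromosome 15 Cyp2d10 and Cyp2d11 point up beside Cyp2d9, which points down.

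Of the 6 Cyp2j genes of chromosome 4, 3 fell and none rose. Cyp2j5, an arachidonic acid epoxygenase of liver and kidney, was at 6.92, 7.85 and 7.57 with Ad-GFP and at 6.42, 5.25 and 5.20 with Ad-nuclear CREBH, and fell by 1.82 (SE 0.37, adjusted p = 0.00508). Cyp2j6 fell by 0.88 (SE 0.20, adjusted p = 0.00785), from 8.19, 8.83 and 8.78 to 7.53, 7.79 and 7.82, and Cyp2j9 fell by 1.04 (SE 0.20, adjusted p = 0.00373). None of the 3 overlapped between groups. Cyp2j11, Cyp2j12 and Cyp2j13 were at the low end of the scale and gave 0.07 to 0.25 without passing.

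Cyp2u1 of chromosome 3, whose human counterpart hydroxylates long-chain fatty acids, was at 6.05, 7.05 and 7.06 with Ad-GFP and at 5.01, 4.67 and 4.90 with Ad-nuclear CREBH, and fell by 1.86 (SE 0.28, adjusted p = 0.00115). Its groups were 1 log2 unit apart at the nearest dishes. Cyp2w1, of chromosome 5, rose by 0.37 (adjusted p = 0.0478) at a level close to the bottom of the scale, and its call was lost without any 1 of 5 dishes, all but Ad-GFP replicate 2, with adjusted p of 0.0688 to 0.159.

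**Figure D3:**
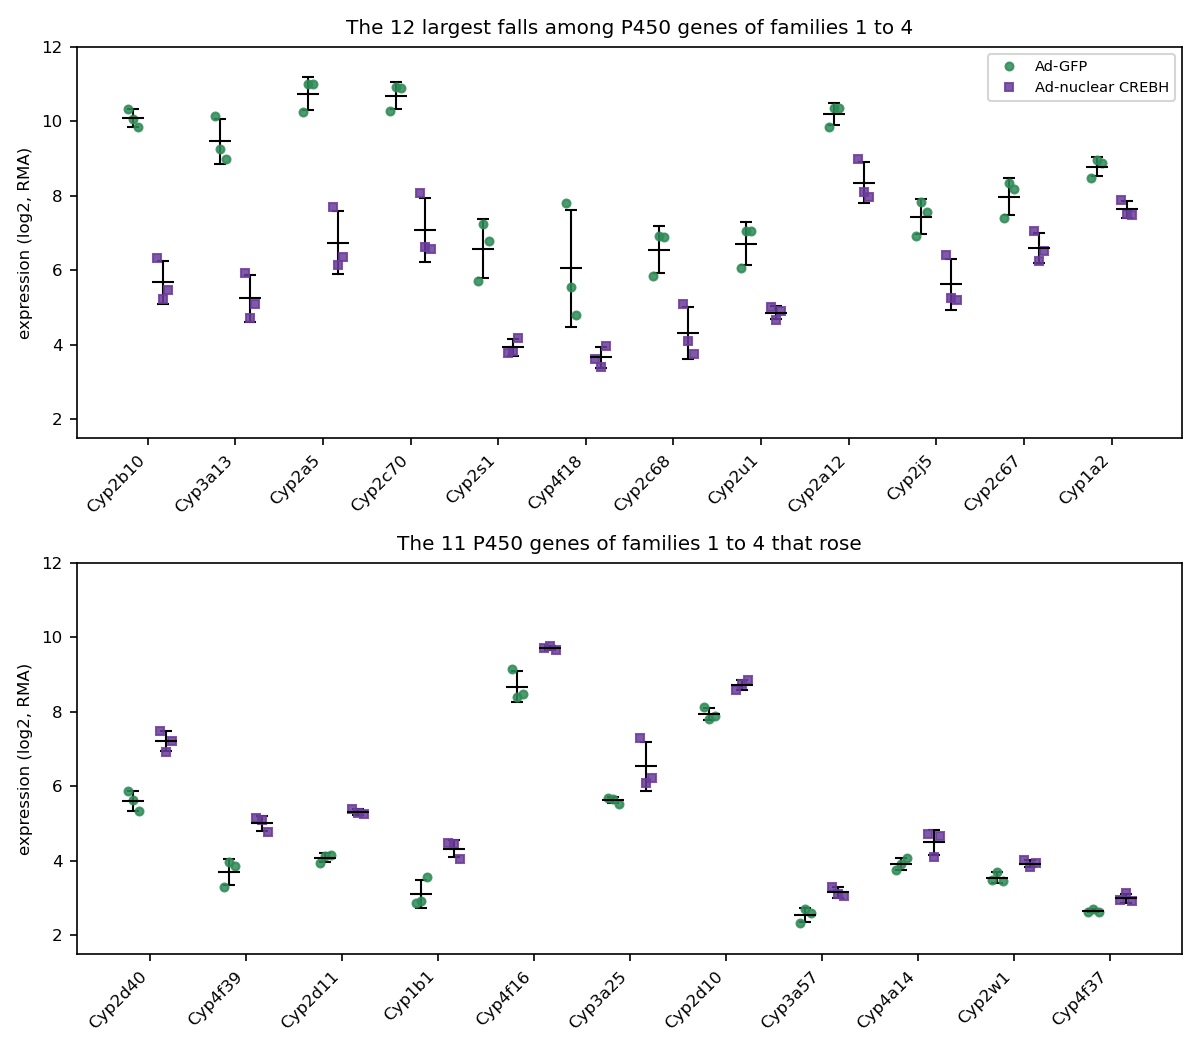
Expression (y axis, log2 after RMA) in each dish is plotted for the 12 P450 genes with the largest falls (upper panel) and the 11 that rose (lower panel), Ad-GFP as circles and Ad-nuclear CREBH as squares in the order of replicates 1, 2 and 3, with the mean and SD of the 3 dishes in black. In every gene plotted the circles and squares do not overlap; Cyp4f18 has the widest spread, with Ad-GFP dishes at 7.82, 5.57 and 4.79.

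Family 3 had 1 gene that fell far, 2 that rose a little and 3 that did not pass. Cyp3a13, which is made in liver and intestine without an inducer, was at 10.14, 9.26 and 8.997 with Ad-GFP and at 5.95, 4.72 and 5.10 with Ad-nuclear CREBH. It fell 18.5-fold (log2 fold change -4.21, SE 0.37, adjusted p = 8.31e-05), the second largest fall of the 65 genes, and replicate 1 was the highest dish in both groups. Cyp3a11, the PXR-induced gene most often taken as the mouse counterpart of human CYP3A4, was at 8.56, 8.94 and 8.63 with Ad-GFP and at 8.93, 7.55 and 7.28 with Ad-nuclear CREBH. With all dishes it did not pass (log2 fold change -0.79, SE 0.39, adjusted p = 0.154). Ad-nuclear CREBH replicate 1 lay among the Ad-GFP dishes and the other two lay at least 1 log2 unit below them, and without replicate 1 Cyp3a11 fell by 1.30 (adjusted p = 0.00136).

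Cyp3a25 was at 5.68, 5.67 and 5.54 with Ad-GFP and at 7.30, 6.11 and 6.22 with Ad-nuclear CREBH, and rose by 0.91 (SE 0.30, adjusted p = 0.0453). This rise depended on single dishes: without Ad-nuclear CREBH replicate 1 it was 0.53 (adjusted p = 0.0305), and leaving out Ad-GFP replicate 1, 2 or 3 or Ad-nuclear CREBH replicate 3 gave adjusted p of 0.0542 to 0.117. Cyp3a57 rose by 0.60 (SE 0.12, adjusted p = 0.00563), from 2.35, 2.72 and 2.60 to 3.31, 3.11 and 3.05, at the low end of the scale and without overlap. Cyp3a16 and Cyp3a44, which are female-biased or made before adulthood, were below the median of all genes and gave -0.09 and -0.42 with adjusted p of 0.747 and 0.207. All family 3 genes other than Cyp3a13 share a cluster of closely alike genes on chromosome 5, whose probes may not be specific to 1 gene, and Cyp3a13 lies apart from it.

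Family 4 had 4 genes that rose, 2 that fell and 6 that did not pass, and its median log2 fold change was -0.02. Cyp4f16, of a subfamily of fatty acid and eicosanoid ω-hydroxylases, was the P450 gene that met the criteria of the study for upregulation. It was at 9.17, 8.39 and 8.49 with Ad-GFP and at 9.72, 9.78 and 9.66 with Ad-nuclear CREBH (log2 fold change 1.04, SE 0.20, adjusted p = 0.00401). The Ad-nuclear CREBH dishes were closer to each other than the Ad-GFP dishes were, and all lay above the Ad-GFP dishes. Cyp4f39, whose human counterpart CYP4F22 hydroxylates the very long fatty acids of skin ceramides, rose by 1.30 (SE 0.20, adjusted p = 0.00138), from 3.31, 3.96 and 3.86 to 5.14, 5.10 and 4.78. The groups did not overlap.

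Cyp4f16 and Cyp4f39 lie next to each other among the genes measured on chromosome 17, and the other Cyp4f genes on that chromosome did not share a direction. Cyp4f37 rose by 0.34 (adjusted p = 0.021) near the bottom of the scale, and lost its call without Ad-GFP replicate 1 or 3 or Ad-nuclear CREBH replicate 2 (adjusted p of 0.0509 to 0.0674). Cyp4f13 fell by 0.58 (adjusted p = 0.0321), from 8.69, 9.35 and 9.18 to 8.56, 8.44 and 8.497, and lost its call without any 1 dish other than Ad-GFP replicate 1, with adjusted p of 0.0575 to 0.114. Cyp4f14, at 5.73, 6.27 and 6.15 against 6.44, 5.07 and 4.95, overlapped through Ad-nuclear CREBH replicate 1. Its log2 fold change was -0.56 (adjusted p = 0.3), and without that dish it fell by 1.04 (adjusted p = 0.00766). Cyp4f15 and Cyp4f40 gave -0.36 and 0.07 and did not pass.

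Cyp4f18, of chromosome 8, oxidizes leukotriene B4 in mouse neutrophils. It was at 7.82, 5.57 and 4.79 with Ad-GFP and at 3.61, 3.41 and 3.97 with Ad-nuclear CREBH, and fell by 2.39 (SE 0.67, adjusted p = 0.0224). Its Ad-GFP dishes spread over 3 log2 units, more than those of any other P450 gene here. Without Ad-GFP replicate 1 it fell by 1.52, and without Ad-nuclear CREBH replicate 1 or 2 its adjusted p was 0.0665 and 0.0752. The leukocyte markers S100a8 and S100a9 were at 2.61 to 3.82 in all 6 dishes.

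Cyp4a14, the fatty acid ω-hydroxylase that is among the genes most readily induced through PPARα, rose by 0.58 (SE 0.19, adjusted p = 0.0441), from 3.77, 3.91 and 4.09 to 4.71, 4.12 and 4.68. The groups were only just apart, and the call was lost without any 1 dish except Ad-nuclear CREBH replicate 2 (adjusted p of 0.0594 to 0.141). Cyp4a31 was at -0.41 (adjusted p = 0.0686) and Cyp4b1 at -0.11 (adjusted p = 0.623). Cyp4x1, at 3.20, 3.03 and 3.03 against 3.50, 3.27 and 3.47, did not overlap between groups but did not pass the test.

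Ad-nuclear CREBH replicate 1 gave higher values than the other two dishes of its group for most of the P450 genes that were well above the bottom of the scale. Among the 30 P450 genes above the median of all genes, it was the highest of the 3 in 25 (83.3%), whereas over all genes above the median it was the highest in 36%. Its median distance from the mean of replicates 2 and 3 was 0.96 for these 30 genes and -0.06 for all such genes. Ad-GFP replicate 1, on the other side, was the lowest of its group in 20 of the 30 (66.7%, against 57.3% of all genes above the median). Over all genes, the mean correlation of an array with the others of its group was 0.986 for Ad-GFP replicate 1, 0.991 for Ad-nuclear CREBH replicate 1 and 0.991 to 0.994 for the other 4.

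Other genes also set Ad-nuclear CREBH replicate 1 apart. Hepatocyte markers were mixed. Tat was at 8.22 in that dish and at 6.54 and 6.72 in replicates 2 and 3, and Fgb was at 10.04 against 8.98 and 9.26. Hnf4a, at 8.37 against 8.66 and 8.67, and Alb, at 13.27 against 13.23 and 13.32, were not highest in that dish. Col1a1, a collagen gene of stellate cells and fibroblasts, was at 5.02 in that dish and at 7.30 and 7.51 in replicates 2 and 3. Other stellate cell markers were mixed. In replicates 1, 2 and 3, Col1a2 was at 4.42, 5.76 and 6.015, Col3a1 at 4.36, 4.44 and 4.32, and Dcn at 4.64, 4.17 and 4.55. Creb3l3, at 9.97, was at its lowest of the group in replicate 1. Without Ad-nuclear CREBH replicate 1, 30 P450 genes fell and 9 rose, with Cyp2b13, Cyp2c29, Cyp2d26, Cyp2f2, Cyp3a11, Cyp4a31 and Cyp4f14 added to those that fell, while Cyp4f13 and Cyp4f18 no longer passed and neither did the rises of Cyp2w1 and Cyp4a14. The part of Creb3l3, of other cells or of the handling of a dish in this was not tested.

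**Figure D4:**
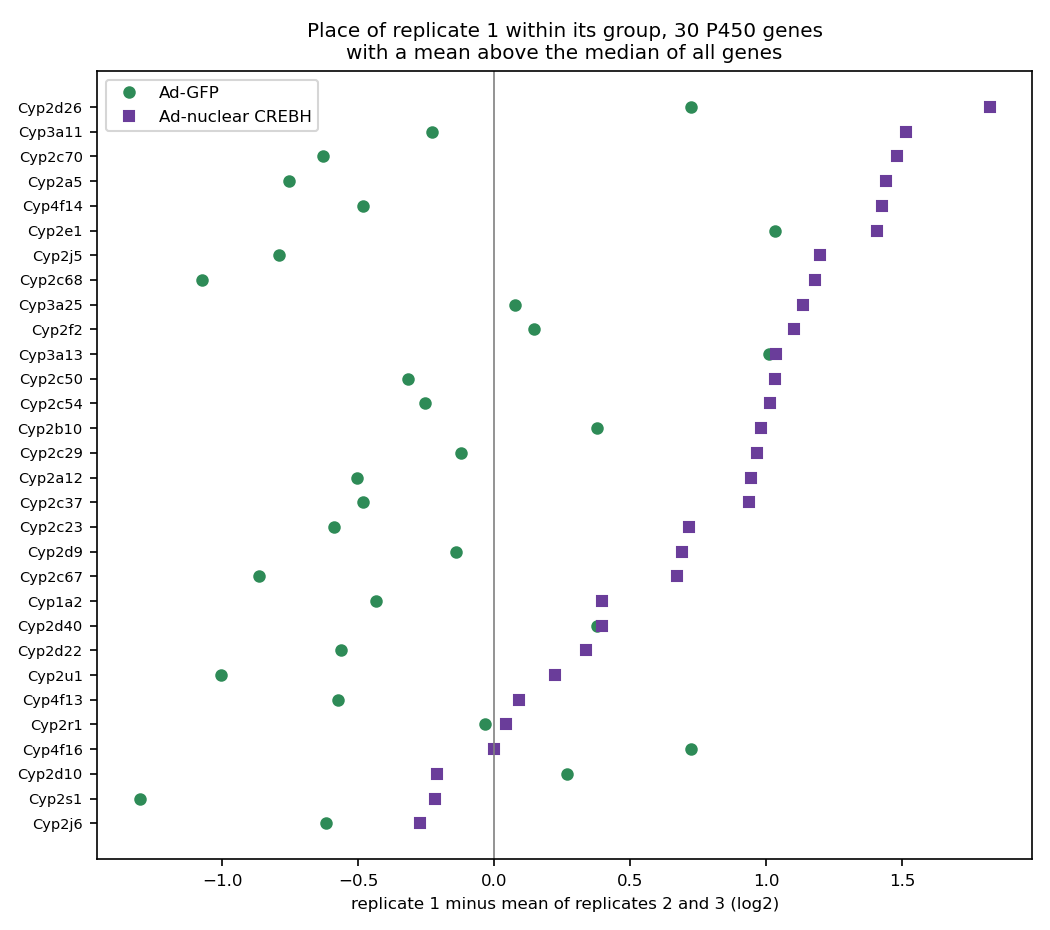
For each of the 30 P450 genes above the median of all genes, the x axis gives replicate 1 minus the mean of replicates 2 and 3 of the same group (log2), with Ad-GFP as circles and Ad-nuclear CREBH as squares. The squares lie right of 0 for most genes, up to 1.82 for Cyp2d26, and the circles lie left of 0 for most.

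P450 genes were also counted by the patterns they are known for in mouse liver. Of 9 genes of pericentral hepatocytes, the cells around the central vein where most P450 enzyme is made, 5 fell (Cyp2a5, Cyp1a2, Cyp2c50, Cyp2c54 and Cyp2c37), Cyp3a25 rose and 3 did not pass (Cyp3a11, Cyp2c29 and Cyp2e1). The list had a median log2 fold change of -0.90. All 9 genes had a mean above the median of all genes. The 30 P450 genes above that median had a median log2 fold change of -0.92, and 66.7% of them fell. The only periportal P450 gene listed was Cyp2f2, described above. Among 11 other pericentral genes 5 fell and 2 rose: Glul, which encodes glutamine synthetase, fell by 2.72 (adjusted p = 1.38e-05), while Oat, an enzyme of ornithine breakdown, rose by 2.21 (adjusted p = 1.84e-05). Of 9 other periportal genes 3 fell and 3 rose. A mean above the median of all genes was found for 7 of the 11 and for 8 of the 9. Of all genes above that median, 29.2% fell and 29.3% rose.

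Some P450 genes differ between the sexes in mouse liver, and the cells here came from male mice. The 3 male-biased P450 genes listed fell: Cyp2d9 and Cyp2u1, as described, and the oxysterol hydroxylase Cyp7b1 of another family, by 2.48 (adjusted p = 0.000877). All 3 had a mean above the median of all genes. Of the 30 P450 genes of families 1 to 4 above that median 66.7% fell, and of all genes above it 29.2% fell. Cyp4a12a and Cyp4a12b, also male-biased but named outside the pattern, did not pass, at -0.25 and -0.54 (adjusted p over all 35556 features = 0.716 and 0.414). Of 7 female-biased P450 genes, each below the median of all genes, Cyp2b9 fell, Cyp4a14 rose and 5 did not pass. Of the 35 P450 genes of families 1 to 4 at or below that median, 14.3% fell and 20% rose. The 2 lists thus differ in level, and an effect of sex bias was not tested. Bcl6 and Stat5a, which control sex-biased genes in mouse liver, fell by 1.79 (adjusted p = 5.61e-05) and 1.17 (adjusted p = 0.00952), and Stat5b was at 0.20 (adjusted p = 0.523).

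Of 23 factors that control P450 genes, 10 fell and 6 rose. The mean level was above the median of all genes for 21 of them, and of all genes above that median 29.2% fell and 29.3% rose. Ahr, the aryl hydrocarbon receptor, was at 9.37, 9.87 and 9.76 with Ad-GFP and at 6.87, 6.79 and 6.75 with Ad-nuclear CREBH, and fell by 2.86 on the log2 scale (SE 0.16, adjusted p = 1.84e-05). Its dishes were more than 2 log2 units apart between groups and close within them. Ahrr, the repressor of that receptor, rose by 1.30 (adjusted p = 0.000577), whereas Nqo1, another gene induced through Ahr and also through Nrf2, fell by 4.71 (adjusted p = 1.91e-05). Nfe2l2, which encodes Nrf2, fell by 1.51 (adjusted p = 0.000165). Aldh3a1, also induced through Ahr, gave 0.15 (adjusted p = 0.318). Arnt, the partner of Ahr, gave -0.26 (adjusted p = 0.46).

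Nr1i2, which encodes PXR, fell by 1.87 (SE 0.29, adjusted p = 0.00125), from 6.16, 7.33 and 6.97 to 5.11, 4.80 and 4.93. Nr1h4, which encodes the bile acid receptor FXR, fell by 2.59 (SE 0.28, adjusted p = 0.00019), and Nr3c1, the glucocorticoid receptor, fell by 1.096 (adjusted p = 0.0025). Nr1i3, which encodes CAR, was not analysed here for want of a feature with its symbol alone. Factors of hepatocyte identity differed: Foxa1, Cebpb and Foxa3 rose by 1.65, 1.44 and 1.41 (adjusted p = 7.21e-05, 0.00166 and 0.00194), whereas Onecut1 fell by 1.04 (adjusted p = 0.0117). Foxa2, Hnf4a and Cebpa, at -0.66, -0.37 and 0.31, had adjusted p of 0.0609, 0.129 and 0.169.

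Ppara had the largest rise in the list. It was at 6.59, 6.39 and 7.08 with Ad-GFP and at 9.60, 9.88 and 9.93 with Ad-nuclear CREBH, and rose by 3.11 on the log2 scale (SE 0.20, adjusted p = 2.35e-05). Of 10 other genes controlled through PPARα, Fgf21 and Creb3l3 rose, 4 fell and 4 did not pass. The mean level was above the median of all genes for 9 of the 10, and of all genes above that median 29.2% fell and 29.3% rose. Acot1, Acaa1b, Fabp1 and Cpt1a did not pass, at -0.33, -0.30, -0.11 and -0.03. Those that fell were Vnn1 by 3.71, Plin2 by 2.74, Pdk4 by 1.97 and Ehhadh by 1.22 (adjusted p of 0.000106, 1.8e-05, 0.0138 and 0.00479). The transcript of the virus may add to the Creb3l3 value, and the study names Fgf21 as a target gene of CREBH itself.

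Partners of the P450 enzymes fell in part. Cyb5a, the microsomal cytochrome b5 that passes electrons to P450 enzymes, was at 10.31, 10.61 and 10.64 with Ad-GFP and at 7.93, 8.50 and 8.53 with Ad-nuclear CREBH, and fell by 2.20 (SE 0.18, adjusted p = 6.22e-05). Cyb5r1, a cytochrome b5 reductase, fell by 2.30 (adjusted p = 0.000336), and Cyb5b fell by 0.97 (adjusted p = 0.00337). The other 3 of 6 measured electron donors and their helpers, Cyb5r3, Pgrmc1 and Pgrmc2, gave 0.04, -0.08 and 0.27 and did not pass. All 6 had a mean above the median of all genes, and of all genes above that median 29.2% fell and 29.3% rose. Por, the P450 reductase, was not analysed here.

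Of 11 genes of heme synthesis and breakdown, 2 rose and 3 fell. The mean level was above the median of all genes for all 11, and of all genes above that median 29.2% fell and 29.3% rose. Cpox, which makes protoporphyrinogen, rose by 2.65 (SE 0.16, adjusted p = 2.2e-05), from 8.57, 8.52 and 8.97 to 11.10, 11.48 and 11.42. The enzymes of the steps before and after it went the other way: Urod fell by 1.501 (adjusted p = 0.00346), and Ppox fell by 1.39 (adjusted p = 0.00017). Alas1, the first and rate-limiting step in the liver, rose by 0.40 (adjusted p = 0.0091), and Blvrb, a biliverdin reductase, fell by 2.43 (adjusted p = 1.38e-05). Among enzymes that take up products of oxidation, 4 of 5 fell: Aldh1a1 by 4.43, Adh1 by 3.09, the microsomal epoxide hydrolase Ephx1 by 2.52 and the soluble epoxide hydrolase Ephx2 by 1.22, with adjusted p of 7.72e-05, 0.000365, 3.53e-05 and 0.00909. All 5 also had a mean above the median of all genes.

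**Figure D5:**
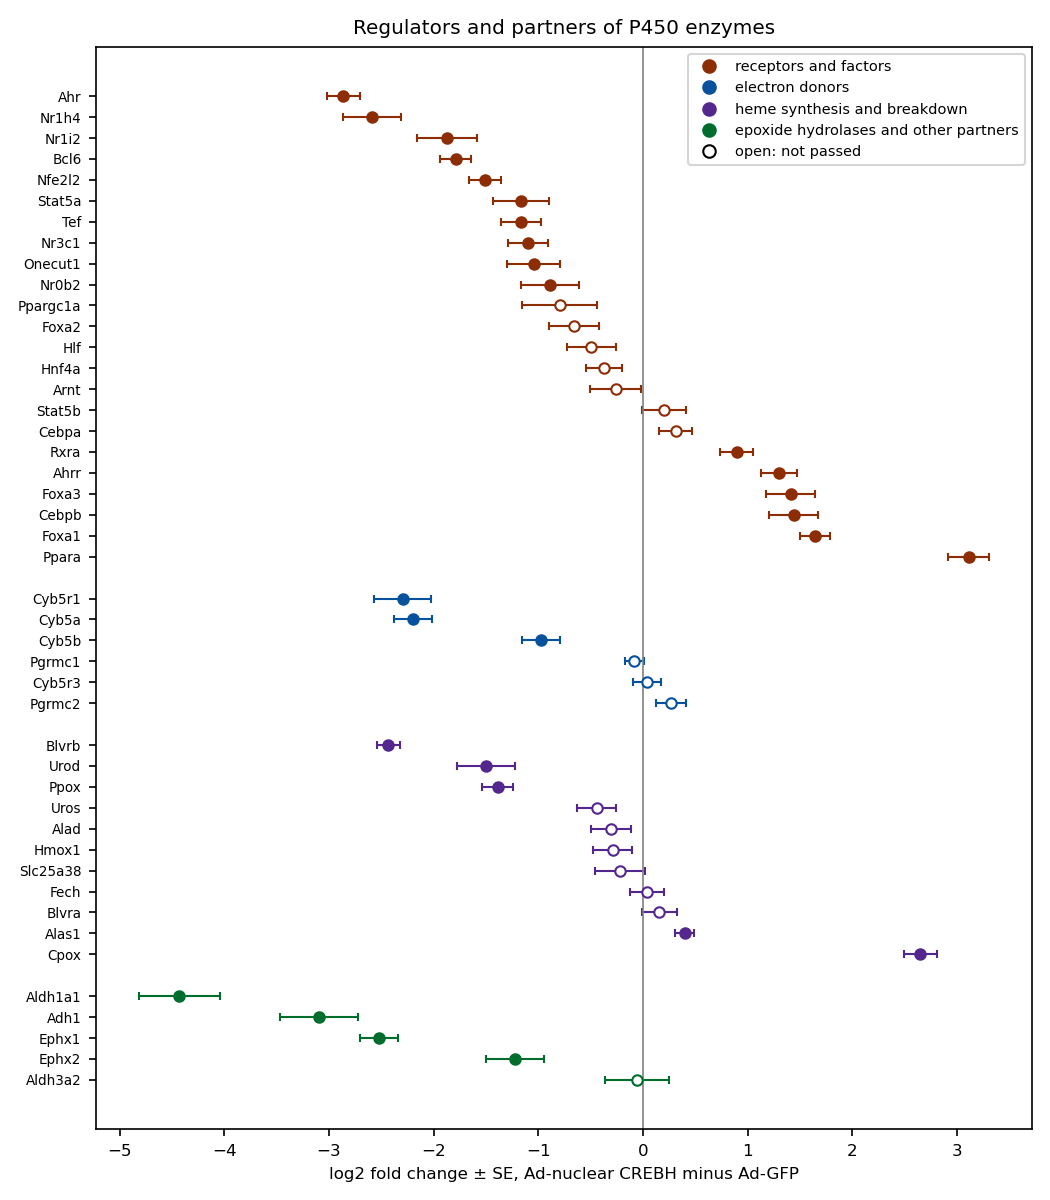
The log2 fold change of each gene (x axis, Ad-nuclear CREBH minus Ad-GFP, ± SE) is plotted for receptors and factors that control P450 genes, electron donors, genes of heme synthesis and breakdown, and epoxide hydrolases and other partners. Filled points passed the test; Ppara at 3.11 and Cpox at 2.65 lie farthest to the right, and Aldh1a1 at -4.43 lies farthest to the left.

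Outside families 1 to 4, 20 P450 genes of other families were measured, of which 5 rose and 5 fell, with a median log2 fold change of -0.01. Over all genes measured, 18.2% fell and 19.2% rose. Cyp8b1, which adds the 12α-hydroxyl group of cholic acid, rose by 4.60 (SE 0.60, adjusted p = 0.000542), and Cyp27b1, the vitamin D 1α-hydroxylase, rose by 4.29 (SE 0.42, adjusted p = 0.000128). Their Ad-GFP dishes were uneven, at 6.755, 4.58 and 7.30 for Cyp8b1 and at 5.01, 3.66 and 5.51 for Cyp27b1. With Ad-nuclear CREBH they were at 10.89, 10.715 and 10.83 and at 8.80, 9.08 and 9.17. Cyp21a1, a steroid 21-hydroxylase, and Cyp51, the lanosterol demethylase, fell by 3.24 and 2.62 (adjusted p = 6.98e-05 and 2.2e-05).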

How the data were processed

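Gene expression was measured in 6 dishes of primary mouse hepatocytes, 3 per group, each on its own array. Log2 expression from RMA is what the authors deposited. Neither the version of RMA nor the array definition is stated in the sources read. RNA was taken up in TRIzol and passed over RNeasy Micro columns per the labels, but in QIAzol and over RNeasy Mini columns in the methods of the study, and the labeling kits named differ too. RMA values carry no background flag, so genes near the low end of the scale may not be expressed, and fold changes there come out too small. The number of arrays limits the precision.

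Groups came from the sample titles, which call the CREBH virus Ad-CREBH3. Symbols came from the platform annotation: 21218 of 35556 features had a single symbol and were used, while the 1881 with several and the 12457 without any were not. All 65 P450 symbols matched a RefSeq gene of GRCm38.p6 and were unchanged there.

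The difference between the groups was fitted per gene by limma 3.58.1 under R 4.3.3, using lmFit and then eBayes with its trend option, without covariates, with 4 residual degrees of freedom and a prior of 3.97, and p-values were adjusted by Benjamini-Hochberg over all 18820 genes. The study used an intensity-based moderated t, which was run as an alternative. For the criteria of the study, the p was that of limma, and the linear value over 300 was asked of the mean of at least 1 group. The script was tested on simulated data. Promoter windows and motifs were read from RefSeq on both strands. Sequences of proteins were not used here. Figures were drawn with matplotlib 3.10.9.

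The members and the gene lists were chosen with earlier results of these data known. The rule for named genes covered Creb3l3, all genes of families 1 and 3, in families 2 and 4 the 12 largest rises and 12 largest falls that passed, the 8 of highest level that did not, those in the sex and zonation lists and those without overlap at a level over 8. In other lists it covered up to 4 rises, 4 falls and 3 genes that did not pass, and in marker lists the 2 brightest. Other members that are named, mostly near the low end of the scale, were chosen after their values were seen. So were Fgb, Tat, Cps1, Apoa1, Acot1, Col1a1, Col1a2, Col3a1, Dcn, S100a8, S100a9, Stat5a, Stat5b, Nr3c1, Nfe2l2, Onecut1 and Foxa2. Other settings tried were the variance prior, weights per array, a block on the replicate number, centring and other normalizations, the features per gene, filters on dim genes, the criteria and leaving out each array in turn. Leaving out both arrays numbered 1 was added after seeing the data.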

Additional observations from a re-analysis of the deposited data

Results flagged for a closer look

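Among P450 features that the rule for members did not take, 2 rose and 3 fell. The largest change was in a feature annotated with 2 P450 symbols, which went from a mean of 10.81 with Ad-GFP to 6.60 with Ad-nuclear CREBH (log2 fold change -4.21, limma adjusted p = 0.000409). Cyp2d37-ps, a pseudogene of the Cyp2d cluster whose name lies outside the pattern used, was at 4.98, 4.61 and 4.98 with Ad-GFP and at 6.59, 6.54 and 6.82 with Ad-nuclear CREBH, a log2 fold change of 1.79 (SE 0.17). One feature annotated with 3 P450 symbols, which cannot be given to 1 gene, had a log2 fold change of 1.46. In limma over all 35556 features both of these rises passed an adjusted p under 0.05. Of the 8 features with several P450 symbols 3 fell, 1 rose and 4 did not pass, and of the 5 with 1 symbol outside the pattern Cyp2d37-ps rose and the other 4 did not pass.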

How the results depend on the processing

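None of the 36 P450 genes that rose or fell reversed its direction in any alternative that was run. Leaving the stricter criteria aside, 26 of them (19 that fell and 7 that rose) kept their call in every alternative in which they were tested. The others were Cyp2b23, Cyp2c37, Cyp2c50, Cyp2c54, Cyp2w1, Cyp3a25, Cyp4a14, Cyp4f13, Cyp4f18 and Cyp4f37. Leaving out 1 array gave 7 to 10 rises and 19 to 30 falls among the 65 genes. By family these ranges were 1 to 1 and 2 to 2 in family 1, 3 to 4 and 16 to 24 in family 2, 1 to 2 and 1 to 2 in family 3, and 2 to 4 and 0 to 2 in family 4. With both arrays numbered 1 left out, an alternative chosen after seeing the data, 8 genes rose and 33 fell, with 2 falls in family 3 and 2 rises and 4 falls in family 4. Array weights gave 32 falls, 2 of them in family 3 and 4 in family 4.

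Tighter criteria gave fewer calls because fewer genes can pass. Testing only genes with a group mean above the median gave 5 rises and 21 falls. The rises were 0 in family 1, 3 in family 2, 1 in family 3 and 1 in family 4. The falls were 1 in family 1, 17 in family 2, 1 in family 3 and 2 in family 4. With a linear group mean over 300 there were 2 rises (0 in family 1, 1 in family 2, 0 in family 3, 1 in family 4) and 10 falls (1 in family 1, 7 in family 2, 1 in family 4). The criteria of the study gave 1 rise (0 in families 1, 2 and 3, 1 in family 4) and 7 falls (1 in family 1, 5 in family 2, 0 in family 4). An adjusted p under 0.05 with at least a 2-fold change gave 5 rises (2 in family 2, 0 in family 3, 2 in family 4) and 16 falls (12 in family 2, 1 in family 4).

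Centring each array on its median moved the median of all genes from 0.04 to 0.18 and the share of rises among all calls from 51.3% to 62.8%, and gave 14 rises and 21 falls among the P450 genes. Dishes with the same replicate number deviated together only weakly (correlations of 0.178, 0.0729 and 0.139), and Ad-GFP replicate 2 correlated best with Ad-nuclear CREBH replicate 3 (0.08), so that the numbers were not taken to pair the dishes. With the replicate number as a block, 10 P450 genes rose and 23 fell. The cause of these differences was not tested.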
